A study of Mus musculus with 7 samples.

Results

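The proteasome genes measured on this array, apart from the 3 catalytic subunits of the immunoproteasome, were compared between CD11c+ spleen cells of wild-type and Atg16l1 hypomorph mice after an allogeneic transplant. They were taken by gene symbol (Psma, Psmb, Psmc, Psmd, Psme or Psmf followed by a digit, without Psmb8, Psmb9 and Psmb10), and 41 of 12393 genes with a probe set of their own met this rule. Each gene was read from the probe set of highest mean over the 7 arrays among those naming it alone. Of the 41, 38 encode subunits, assembly chaperones, activators or the inhibitor-like partner of the proteasome. Psma8 encodes an alpha subunit known from testis. Psmc3ip and Psme3ip1 are included by their symbols only: the first is known for meiotic recombination, and both encode proteins that bind a proteasome protein. The activator gene Psme2 is not a member, because its probe set names Psme2b as well.

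The proteasome is the protease that degrades ubiquitin-tagged proteins in the cytosol and nucleus. Its 20S core is a barrel of outer alpha rings and inner beta rings, in which Psmb5, Psmb6 and Psmb7 carry the constitutive active sites. The 19S regulatory particle caps the barrel, with a base whose ATPases unfold the substrate and a lid that removes its ubiquitin chain. In dendritic cells the proteasome also makes most of the peptides shown on MHC class I, and interferon gamma replaces the constitutive catalytic subunits by their immunoproteasome counterparts. It is the other main route of protein degradation beside autophagy, the pathway in which Atg16l1 acts.

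Spleens of transplant recipients were taken on day 7, and CD11c+ cells were enriched on magnetic columns. All samples were labelled with the C57BL/6J background; 4 samples were labelled WT and 3 Atg16L1 hypomorphic, with an age of 9 weeks in the sample protocol and 8 weeks in the design text. A hypomorphic allele leaves part of a gene's activity. The labels do not say whether donor, recipient or both carried it, nor whether arrays stand for separate animals, and the p-values then measure only the spread between these samples, which may be technical. RNA (100 ng total) of each sample went on 1 Affymetrix mouse expression array. The probe set of Atg16l1 read 7.42, 7.33, 7.26 and 7.20 in wild type against 6.86, 6.76 and 6.94 in the hypomorph, without overlap (log2 change -0.45, limma adjusted p = 0.462).

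The cells were a mixture. Of 11 measured dendritic cell markers, 7 had a mean above the median probe set (5.51), among them Itgax, which encodes CD11c (8.24 and 8.29 as group means), while Zbtb46, Ccr7, Xcr1 and Cd209a lay below it. All 7 T cell, 8 neutrophil and 8 red pulp macrophage markers measured had means above it, as had 6 of 7 erythroid markers. In such bulk samples fewer cells of a type and less RNA per cell cannot be told apart. The arrays had medians from 5.46 to 5.53, and an array's mean correlation with the others was 0.990 to 0.993.

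Proteasome genes are a textbook case of coordinated transcription, through antioxidant response elements bound by Nrf1 (Nfe2l1) and, in many of them, CCAAT boxes bound by NF-Y. RefSeq promoter windows (GRCm38.p6, 300 bases, most of them before the start site) matched 34 of the 41 genes, in 37 windows. The letters CCAAT, on either strand, were in 14 windows (37.8%) against 37.4% of all 32851 windows, and 8 (21.6%) held 2 or more against 11.7%. The response element core TGANNNNGC, on either strand, was in 20 (54.1%) against 41.3%, and 5 (13.5%) held both motifs against 15.4%. The median GC content was 59.0% against 52.7%. A match is a description of letters and not a binding site. The windows printed are those of the 4 genes whose groups did not overlap (Psmb5, Psmc2, Psmc4 and Psmd6) and, for contrast, of Psma3, whose log2 change was 0.01. They are written 5′ to 3′ in the direction of the gene, with both motifs in capitals, which nowhere overlap each other.
Psmb5 (chr14:54617946-54618245, minus strand): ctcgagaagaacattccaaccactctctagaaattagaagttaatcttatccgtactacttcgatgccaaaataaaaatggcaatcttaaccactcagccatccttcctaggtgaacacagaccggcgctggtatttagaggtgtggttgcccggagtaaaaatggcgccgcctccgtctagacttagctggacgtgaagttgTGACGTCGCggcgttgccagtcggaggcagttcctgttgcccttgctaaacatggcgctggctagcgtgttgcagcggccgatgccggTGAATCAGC
Psmc2, first start site (chr5:21785025-21785324, plus strand): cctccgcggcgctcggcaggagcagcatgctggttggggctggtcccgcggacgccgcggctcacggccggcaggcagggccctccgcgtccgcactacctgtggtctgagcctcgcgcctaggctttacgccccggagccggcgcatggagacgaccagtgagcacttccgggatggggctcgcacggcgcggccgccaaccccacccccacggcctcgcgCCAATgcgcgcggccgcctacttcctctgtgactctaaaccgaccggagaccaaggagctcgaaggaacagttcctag
Psmc2, second start site (chr5:21786497-21786796, plus strand): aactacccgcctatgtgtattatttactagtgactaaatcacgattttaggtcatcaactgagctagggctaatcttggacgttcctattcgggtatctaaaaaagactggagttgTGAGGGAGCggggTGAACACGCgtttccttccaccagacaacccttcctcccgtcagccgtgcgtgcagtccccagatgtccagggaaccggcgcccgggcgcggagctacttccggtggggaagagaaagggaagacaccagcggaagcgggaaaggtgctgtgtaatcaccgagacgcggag
Psmc4 (chr7:28050043-28050342, minus strand): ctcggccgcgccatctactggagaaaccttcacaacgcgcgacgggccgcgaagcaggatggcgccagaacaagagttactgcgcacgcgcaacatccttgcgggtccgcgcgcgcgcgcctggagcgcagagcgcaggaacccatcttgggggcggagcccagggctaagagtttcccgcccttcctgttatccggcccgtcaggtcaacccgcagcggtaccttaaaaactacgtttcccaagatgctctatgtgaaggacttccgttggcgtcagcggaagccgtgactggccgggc
Psmd6 (chr14:14120896-14121195, minus strand): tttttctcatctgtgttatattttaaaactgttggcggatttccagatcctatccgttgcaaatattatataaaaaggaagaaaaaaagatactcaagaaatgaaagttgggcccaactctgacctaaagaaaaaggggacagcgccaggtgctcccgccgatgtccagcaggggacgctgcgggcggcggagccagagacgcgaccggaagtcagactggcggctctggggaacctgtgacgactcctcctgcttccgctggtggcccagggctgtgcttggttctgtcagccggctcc
Psma3 (chr12:70974373-70974672, plus strand): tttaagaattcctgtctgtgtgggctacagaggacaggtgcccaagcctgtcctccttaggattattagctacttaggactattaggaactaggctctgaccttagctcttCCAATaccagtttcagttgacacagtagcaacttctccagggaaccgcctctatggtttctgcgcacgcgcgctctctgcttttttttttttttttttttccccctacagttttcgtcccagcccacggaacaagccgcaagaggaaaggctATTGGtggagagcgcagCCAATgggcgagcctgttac
The Psmb5 window held 2 response element cores and no CCAAT. The first start site of Psmc2 held 1 CCAAT and the second 2 response element cores. Psmc4 and Psmd6 held neither, and Psma3 held 3 CCAAT boxes. The 4 genes without overlap between the groups did not have these letters in common.

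Of the proteasome genes, 0 had an adjusted p under 0.05 by limma, a threshold that 0% of 22625 probe sets passed. Under the alternatives, 0 to 5 probe sets of the whole array passed this adjusted threshold. At an unadjusted limma p under 0.05 there were 3 members. Of the members 2.44% were higher at that p, against 3.57% of all genes, and 4.88% lower, against 3.59%. The adjusted p of the 41 ran from 0.644 to 0.993, and their smallest value under the alternatives from 0.170 to 0.827. Estimated changes were small: log2 differences, hypomorph minus wild type, ran from -0.32 (Psme3) to 0.29 (Psmd7). No estimate reached 0.5 on the log2 scale, or 1.41-fold. For 36 of the 41 the whole 95% confidence interval lay within 0.5 on either side of 0 (87.8%, against 78.2% of all genes), so that for these genes a larger change lay outside the interval. The median standard error of a member was 0.0801, from 0.0584 to 0.197.

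More members had a negative than a positive difference. The counts were 29 and 12, or 29.3% positive against 49.2% over all 12393 genes, with a median of -0.05 against 0.00. Among the 2717 genes whose mean lay above the lower quartile of the members, 43.0% were positive with a median of -0.02. Negative differences stayed the majority with any 1 array left out, but the size of the balance depended on single arrays. Without hypomorph replicate 3 there were 20 positive members and the median was -0.01; without hypomorph replicate 1 there were 5 and -0.11; without wild-type replicate 3 there were 7 and -0.07. At an unadjusted limma p under 0.05, 1 member was higher (2.44%, against 3.57% of all genes) and 2 were lower (4.88%, against 3.59%), shares close to the background. Among the 2717 genes, a set without an upper limit of level, these shares were 4.97% higher and 5.56% lower. Groups that did not overlap were found for 0 members higher (background 2.43%) and 4 lower (9.76%, background 2.72%). Among the 2717 genes the shares without overlap were 2.98% higher and 5.04% lower.

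**Figure D1:**
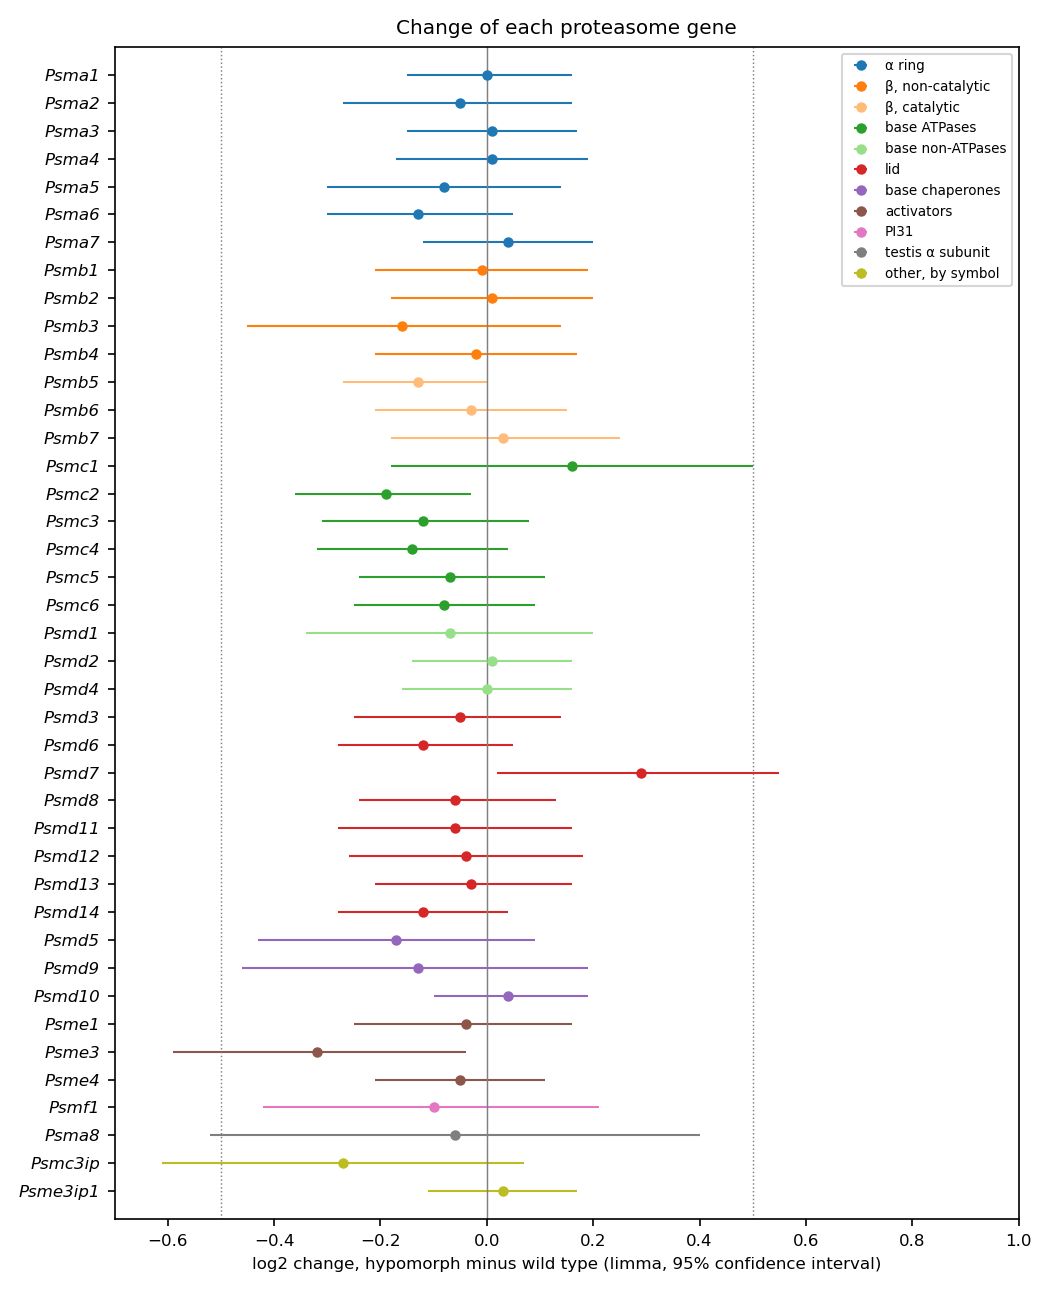
Log2 change of each of the 41 genes, hypomorph minus wild type (x axis), with its 95% confidence interval from limma; genes are grouped and coloured by their place in the proteasome, and dotted lines mark 0.5 on either side of 0. All estimates lie between -0.32 (Psme3) and 0.29 (Psmd7), and 36 intervals lie between the dotted lines.

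The 7 genes of the alpha ring, which forms the gate of the core and binds the regulatory particles, had a median log2 change of 0.00, with 4 positive and 3 negative. Psma1 (0.00), Psma3 (0.01), Psma4 (0.01) and Psma7 (0.04) were level or above, and Psma2 (-0.05), Psma5 (-0.08) and Psma6 (-0.13) below. The other probe sets of Psma6 gave -0.04, -0.15 and -0.06, of which only the first lay above the median probe set. Psma7 read 10.03, 10.02, 9.98 and 10.03 in wild type, a spread of 0.0215 (SD), and 10.16, 10.05 and 9.95 in the hypomorph. The hypomorph arrays thus lay on both sides of a narrow wild-type group, and without hypomorph replicate 1 the change was -0.02. All 7 intervals lay within 0.5 of 0. Psma8, the testis subunit, read 3.89 to 4.76 over all arrays, below the median probe set, and its change was -0.06 with a wide interval (-0.52 to 0.40).

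Among the constitutive catalytic subunits Psmb5, which carries the chymotrypsin-like site, showed the most even difference. It read 9.41, 9.38, 9.33 and 9.33 in wild type against 9.20, 9.26 and 9.23 in the hypomorph. Every hypomorph array was below every wild-type array, by at least 0.073. The log2 change was -0.13 (95% interval -0.27 to 0.00), a level 1.10-fold lower (limma unadjusted p = 0.0557, adjusted p = 0.644), and it stayed between -0.15 and -0.12 with any 1 array left out. Psmb5 also had the smallest spread within groups of all members, 0.0352. It has a single probe set, so there was no second reading.

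Psmb6, with the caspase-like site, read 9.57, 9.56, 9.52 and 9.52 in wild type against 9.67, 9.40 and 9.47 in the hypomorph. Psmb7, with the trypsin-like site, read 9.02, 9.12, 9.04 and 8.99 in wild type against 9.22, 9.13 and 8.88 in the hypomorph. In both genes hypomorph replicate 1 was the highest of all 7 arrays and another hypomorph array the lowest. Their log2 changes were -0.03 (-0.21 to 0.15) and 0.03 (-0.18 to 0.25), with signs that depended on single arrays: Psmb6 was at 0.03 without hypomorph replicate 2 and at 0.00 with array weights, and Psmb7 at -0.04 without hypomorph replicate 1. Whether Psmb5 differs from Psmb6 and Psmb7 in its change was not tested.

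The 4 beta subunits without an active site, which complete the inner rings, had a median of -0.01. Psmb1 (-0.01), Psmb2 (0.01) and Psmb4 (-0.02) were within 0.02 of 0. Psmb3 had -0.16 (-0.45 to 0.14), from 11.01, 10.65, 10.71 and 10.58 in wild type against 10.65, 10.38 and 10.71 in the hypomorph. Its groups overlapped widely, with wild-type replicate 1 the highest array and hypomorph replicate 2 the lowest. Taken as a whole, the 14 genes of the core had 6 positive and 8 negative changes with a median of -0.01, and all 14 intervals lay within 0.5 of 0.

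The base ATPases, the ring of motor proteins that unfolds substrates, had a median of -0.10 with 5 of 6 negative. This median was -0.05 without hypomorph replicate 3 and -0.06 without wild-type replicate 2. Of the 4 members without overlap, 2 were base ATPases. That is 33.3% of the group, against 2.72% lower over all genes and 5.04% among the 2717 genes. The share rests on only 6 genes, and in both the second probe set overlapped. Psmc2 read 10.21, 10.32, 10.14 and 10.28 in wild type against 10.09, 10.06 and 9.97 in the hypomorph. All hypomorph arrays lay below wild type, the closest by 0.042. The log2 change was -0.19 (-0.36 to -0.03), 1.14-fold lower (limma unadjusted p = 0.0271, adjusted p = 0.644), and -0.23 to -0.16 with single arrays left out. The probe set belongs to a class that may cross-hybridize, by its suffix, as do those read for Psma6, Psmd11 and Psme4. The other probe set of Psmc2 gave -0.14, with overlap.

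Psmc4 read 9.74, 9.61, 9.83 and 9.58 in wild type against 9.58, 9.52 and 9.55 in the hypomorph. The groups were apart by only 0.006, and the change was -0.14 (-0.32 to 0.04); the second probe set of the gene gave -0.03 with overlap, and the mean of both -0.09. Psmc3 (-0.12), Psmc6 (-0.08) and Psmc5 (-0.07) had smaller differences. Psmc1 was the exception in sign, with 9.14, 9.20, 9.12 and 9.16 in wild type against 9.70, 9.03 and 9.22 in the hypomorph. A single array, hypomorph replicate 1, stood above all others there, and without it the change of 0.16 (-0.18 to 0.50) became -0.03.

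The other base subunits, which serve as scaffold and ubiquitin receptor, were near 0: Psmd2 at 0.01, Psmd4 at 0.00 and Psmd1 at -0.07. In the lid, 7 of 8 genes were negative with a median of -0.05, which was -0.11 without hypomorph replicate 1, 0.00 without hypomorph replicate 3 and -0.01 when wild-type replicate 2 was left out. Psmd14, the deubiquitinase that strips the ubiquitin chain, had -0.12 (-0.28 to 0.04) from 10.46, 10.51, 10.41 and 10.47 in wild type against 10.42, 10.37 and 10.25 in the hypomorph, so that hypomorph replicate 1 reached just above the lowest wild-type array. Psmd8 (-0.06), Psmd11 (-0.06), Psmd3 (-0.05), Psmd12 (-0.04) and Psmd13 (-0.03) were closer to 0.

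Psmd6, a structural subunit of the lid, read 9.87, 10.04, 9.83 and 9.90 in wild type against 9.79, 9.78 and 9.80 in the hypomorph. The hypomorph arrays were nearly equal (SD 0.00758) and lay 0.030 below the lowest wild-type array. The change was -0.12 (-0.28 to 0.05; limma adjusted p = 0.678), and ran from -0.15 to -0.07 over left-out arrays, the smallest without wild-type replicate 2. The second probe set of Psmd6 also had no overlap, with 9.63 to 9.80 in wild type and 9.52 to 9.61 in the hypomorph and a change of -0.16. Among the 4 members without overlap, Psmd6 alone had a further probe set without overlap.

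Psmd7, the partner of Psmd14 in the lid, moved the other way and had the largest positive difference of the 41. It read 7.98, 8.24, 7.81 and 8.07 in wild type against 8.42, 8.35 and 8.18 in the hypomorph. Of the 3 hypomorph arrays, 2 were above all wild-type arrays and the other was below wild-type replicate 2. The change was 0.29 (0.02 to 0.55), 1.22-fold higher (limma unadjusted p = 0.0358, adjusted p = 0.644), and 0.22 to 0.36 with single arrays left out. The other probe sets of Psmd7 gave -0.05, at a mean of 6.14, and -0.02, at 2.61, and their mean with the first was 0.07.

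Counted together, the 17 genes of the 19S particle had 4 positive and 13 negative changes with a median of -0.06. The base assembly chaperones, which hold ATPases before they join the particle, gave -0.17 for Psmd5, -0.13 for Psmd9 and 0.04 for Psmd10. Their median of -0.13 turned to 0.04 with the probe set of largest variance and to 0.01 with the mean over a gene's probe sets. Of these genes only Psmd9 has a second probe set. It gave 0.15 at a mean of 4.13, below the median probe set. Psmd5 split the hypomorph group, at 7.64, 8.01 and 7.64 against 7.96, 7.92, 7.79 and 8.04 in wild type. Psmd10, also known as gankyrin, read 8.15, 8.04, 8.10 and 8.04 in wild type against 8.18, 8.10 and 8.10 in the hypomorph, and hardly varied on any array.

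**Figure D2:**
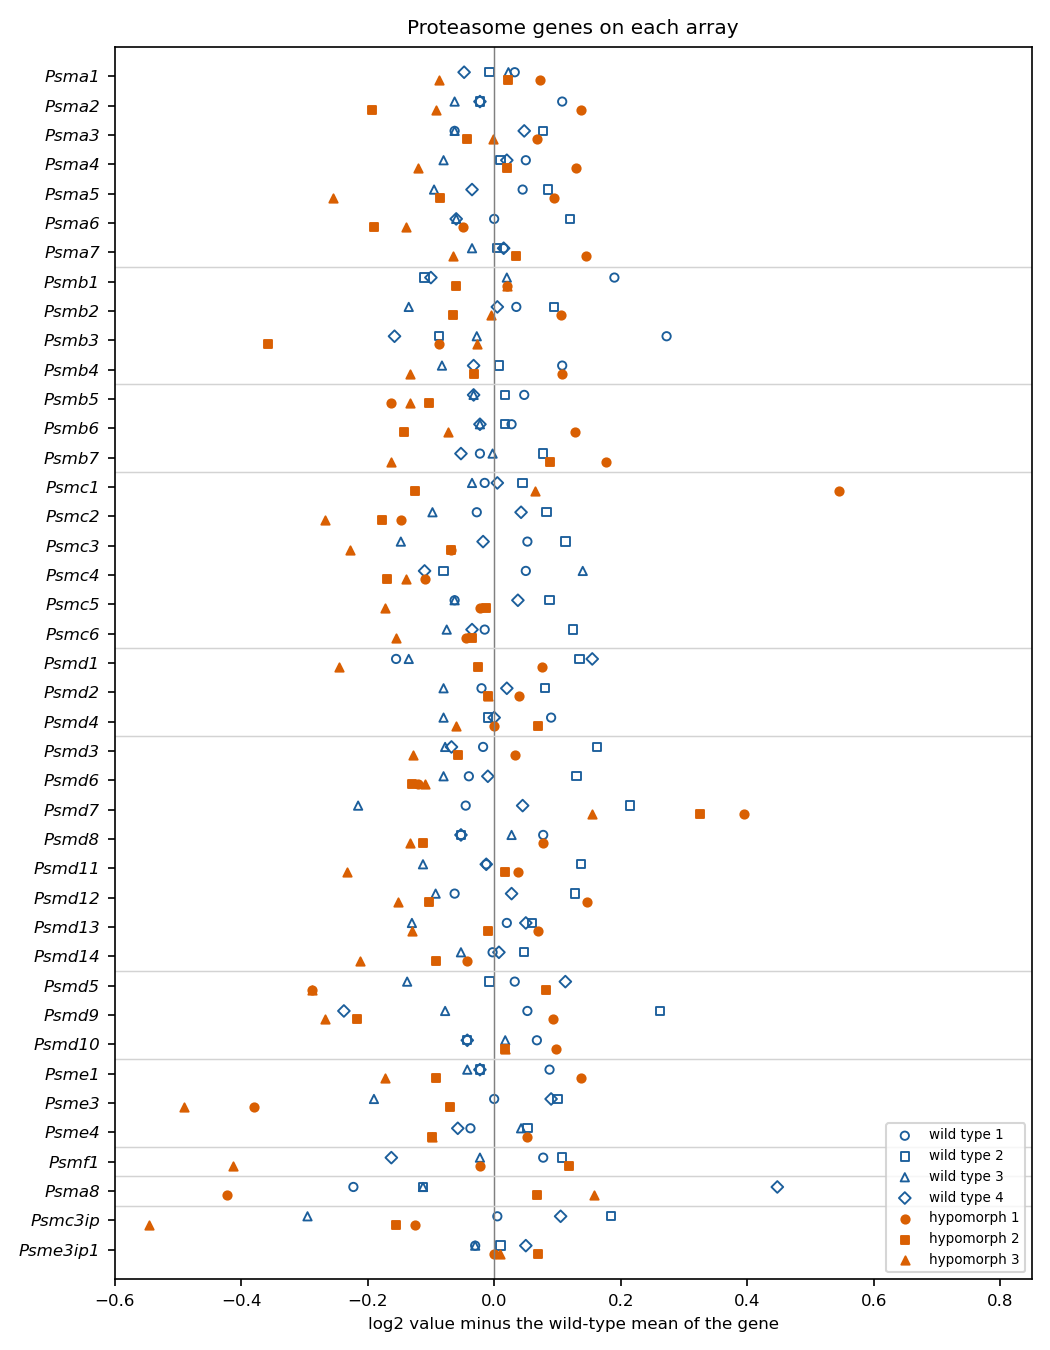
Log2 value of each gene on each array minus the wild-type mean of that gene (x axis), for the 41 genes in the order of the complex; open blue symbols are the 4 wild-type arrays and filled orange symbols the 3 hypomorph arrays, and the symbol shape gives the replicate number. Psmb5, Psmc2 and Psmd6 have all orange symbols left of the blue ones, and hypomorph 3 is the lowest array for 23 genes. In Psmc4 the groups are apart by only 0.006. Plotted values are rounded, so its hypomorph 1 and wild type 4 symbols share an x value.

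The activators are alternative caps that open the core without ATP. Psme1, the interferon-induced alpha subunit of PA28, read 11.12, 11.01, 10.99 and 11.01 in wild type against 11.17, 10.94 and 10.86 in the hypomorph, with the hypomorph arrays above and below wild type. Its change was -0.04 (-0.25 to 0.16), and 0.02 without hypomorph replicate 3. Psme4, or PA200, had -0.05 (-0.21 to 0.11). The probe set shared by Psme2 and Psme2b read 10.62, 10.54, 10.46 and 10.56 in wild type against 10.62, 10.56 and 10.37 in the hypomorph, a change of -0.03 (-0.22 to 0.16).

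Psme3, the nuclear activator PA28 gamma, had the lowest change of the 41. It read 7.13, 7.23, 6.94 and 7.22 in wild type against 6.75, 7.06 and 6.64 in the hypomorph. Hypomorph replicates 1 and 3 were below all wild-type arrays, and hypomorph replicate 2 lay among them. The change was -0.32 (-0.59 to -0.04), 1.24-fold lower (limma unadjusted p = 0.0304, adjusted p = 0.644; adjusted p = 0.170 without hypomorph replicate 2, the smallest of any member under any alternative), with a range of -0.44 to -0.23 over left-out arrays. A second probe set gave -0.10 with overlap, and another, at a mean of 2.62 and thus below the lower quartile of every array, gave 0.20. The mean over all 3 probe sets of Psme3 changed by -0.07.

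Psmf1 encodes PI31, a protein that binds the core and was first described as its inhibitor. It read 7.37, 7.40, 7.27 and 7.13 in wild type against 7.27, 7.41 and 6.88 in the hypomorph, with hypomorph replicate 3 the lowest and replicate 2 the highest array (change -0.10, -0.42 to 0.21). Of the genes included by symbol, Psmc3ip had -0.27 (-0.61 to 0.07), from 6.54, 6.72, 6.24 and 6.64 in wild type against 6.41, 6.38 and 5.99 in the hypomorph, with overlap at wild-type replicate 3. Its change was -0.14 without hypomorph replicate 3 and -0.37 without wild-type replicate 3. Psme3ip1 had 0.03 and the narrowest range of all members, 0.10 over the 7 arrays. Without Psmc3ip, Psme3ip1 and Psma8 the median of the members was -0.05 as before.

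Probe sets of one gene did not always point the same way. Of the 20 members with several, 12 had the same sign in all. In Psma1, Psma5, Psmd9, Psme3 and Psmf1 the probe sets of opposite sign lay below the median probe set (5.51). In Psmd7, Psmd11 and Psme4 a probe set of opposite sign lay above it. Over all 61 member probe sets whose mean lay above the median probe set, 44 were negative, 15 positive and 2 at 0.00, with a median of -0.05.

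The members also varied from array to array, over a median range of 0.30 per gene (0.10 to 0.86). Hypomorph replicate 3 was the lowest array for 23 of the 41 genes and the highest for 0, whereas hypomorph replicate 1 was the highest for 16 and the lowest for 2, and wild-type replicate 2 the highest for 15. As differences from the wild-type mean of each gene, the member medians were 0.01, 0.06, -0.07 and -0.02 in wild type against 0.04, -0.06 and -0.13 in the hypomorph. The core medians were 0.04, 0.01, -0.05 and -0.03, then 0.10, -0.06 and -0.09, and those of the 19S particle -0.02, 0.09, -0.08 and 0.01, then 0.03, -0.06 and -0.14. In both particles hypomorph replicate 3 lay below all wild-type arrays, and hypomorph replicate 1 did not.

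Other lists differed between the same arrays. The cell cycle list (17 of 18 genes measured, 17 negative, median change -0.33) stood at -0.40, 0.07 and -0.67 on hypomorph replicates 1, 2 and 3, and at -0.10 to 0.11 in wild type. The erythroid list (7 of 10 measured, 6 negative) stood at -0.75, 0.38 and -1.93, with a summed linear signal of 5230 to 8890 in wild type and 1700 to 8870 in the hypomorph and Hba-a1 below the lower quartile of every array. The interferon gamma list (13 of 16 measured, 10 positive, median 0.10) stood at 0.51, -0.11 and -0.27. Hypomorph replicate 3, the lowest array for most proteasome genes, was also lowest in these lists. Hypomorph replicate 1, highest for many, was highest for the interferon gamma genes but low in the cell cycle and erythroid lists. Among the lists described further below, hypomorph replicate 3 was lowest for the core assembly chaperones (-0.12). It was not lowest for the Nrf1 and p97 list (0.00), neutrophil markers (0.06) or B cell markers (0.19). For the neutrophil and B cell markers hypomorph replicate 1 was lowest (-0.90 and -0.72). The part of these lists in the differences of the proteasome genes was not tested.

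**Figure D3:**
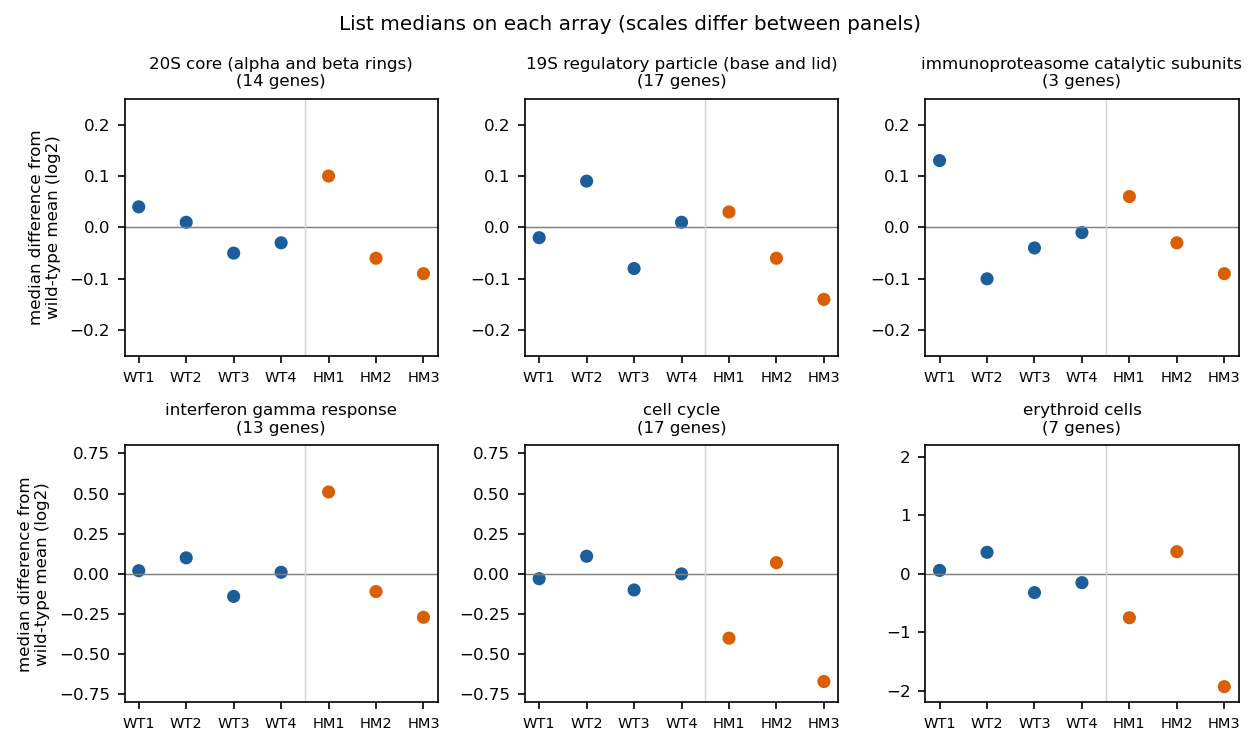
Median difference from the wild-type mean (log2, y axis) on each array (x axis; WT, wild type in blue; HM, hypomorph in orange) for the 20S core, the 19S particle, the immunoproteasome subunits and 3 gene lists, with y scales that differ between panels. HM3 is lowest for the core (-0.09), the 19S particle (-0.14), the cell cycle (-0.67) and the erythroid list (-1.93), and HM1 is highest for the core (0.10) and the interferon gamma list (0.51).

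Markers of the cell types were read in the same way. Neutrophil markers were negative in 8 of 8 (summed linear signal 55400 to 61600 in wild type, 36600 to 61100 in the hypomorph), and pancreatic acinar markers in 6 of 7 measured of 10 (744 to 5070 and 699 to 1490). Red pulp macrophage markers were positive in 8 of 8 (22000 to 36700 and 32000 to 37700), and plasma cell markers in 5 of 5 measured of 6 (2290 to 3240 and 2950 to 3980). As median differences from the wild-type mean, neutrophil markers stood at -0.90, -0.61 and 0.06 on hypomorph replicates 1, 2 and 3. Red pulp macrophage markers stood at -0.45, 0.19, -0.11 and 0.37 in wild type against 0.42, 0.15 and 0.31 in the hypomorph. Both overlapped wild type, whereas plasma cell medians did not (-0.21 to 0.18 and 0.29 to 0.40). B cell markers were negative in 4 of 5 measured of 6 (380 to 495 and 225 to 475), T cell markers positive in 5 of 7 measured of 8 (3070 to 5750 and 3690 to 4700), and dendritic cell markers positive in 7 of 11 (7610 to 9210 and 8040 to 11100). In these lists 0 markers lay below the lower quartile of every array. Their part in the proteasome values was not tested.

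The immunoproteasome subunits, which were left out of the members, had differences of similar size. Psmb8 had a log2 change of -0.04 (-0.22 to 0.15), Psmb9 -0.11 (-0.33 to 0.11) and Psmb10 0.13 (-0.22 to 0.49). Psmb10 read 10.20 on hypomorph replicate 1, above the 9.48 to 9.91 of wild type, and 9.78 and 9.67 on the others.

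Genes around the proteasome were read from further lists, and no gene in them passed an adjusted p of 0.05. Of the core assembly chaperones, 5 of 6 were measured, with 2 positive, 3 negative and a median of -0.04. Psmg1, which pairs with Psmg2 to build the alpha ring, read 8.32, 8.29, 8.16 and 8.26 in wild type against 8.00, 8.22 and 7.93 in the hypomorph (-0.21, limma unadjusted p = 0.0455, adjusted p = 0.644). Psmg2 had -0.23 and the same order of hypomorph arrays, at 8.05, 8.48 and 7.69 against 8.26 to 8.35 in wild type. Both were low on hypomorph replicates 1 and 3 and not on replicate 2. Psmg4 had 0.12, and Pomp, the maturation factor of the core, 0.02.

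Of the ubiquitin receptors and deubiquitinases bound to the proteasome, 12 of 15 were measured, with 5 positive, 7 negative, a median of -0.05 and 0 at an unadjusted p under 0.05. Those with the smallest p were Ubqln4 (-0.23), a shuttle factor, Uchl5 (-0.18), a deubiquitinase of the 19S particle, and Zfand2a (0.28), an arsenite-inducible partner. The Nrf1 and p97 list had 11 of 12 measured, 7 positive and 4 negative, with a median of 0.03. Faf1, an adaptor of the p97 segregase, read 8.63, 8.62, 8.55 and 8.49 in wild type against 8.37, 8.33 and 8.14 in the hypomorph, all below wild type (-0.29, limma unadjusted p = 0.00646, adjusted p = 0.644). Nfe2l1 itself, the transcription factor of proteasome genes, read 7.11, 7.28, 7.16 and 7.29 in wild type against 7.31, 7.18 and 7.37 in the hypomorph, with overlap and a change of 0.08. Syvn1, a ubiquitin ligase of the endoplasmic reticulum, was higher without overlap (0.09, limma unadjusted p = 0.15, adjusted p = 0.686). Ube2n, a ubiquitin-conjugating enzyme of the ubiquitin list, was lower without overlap (-0.10, limma unadjusted p = 0.139, adjusted p = 0.678). Over all genes, 2.43% were higher and 2.72% lower without overlap. In the ubiquitin list 7 of 14 were measured, with 4 positive, 3 negative and a median of 0.02.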

How the data were processed

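CD11c+ spleen cells were measured on 7 arrays, 4 wild type and 3 hypomorph. The deposited values are on a log2 scale, judged from their range, with 1 per probe set and array; they were made with Affymetrix Power Tools, per the submitters' processing notes. For version, summary method and normalization, nothing is given in the sources. The arrays' quartiles were nearly equal. Of 22690 probe sets, 64 controls and 1 without values were left out. Symbols came from the platform annotation, updated by Entrez identifier through RefSeq genes of GRCm38.p6 (20350 of 20379 probe sets naming 1 gene matched; 691 named several and 1555 none).

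The groups were fitted as 2 means, with no block, by lmFit and eBayes of limma (3.58.1; R 4.3.3) over all 22625 probe sets, with Benjamini-Hochberg adjustment. The step was tested on simulated data. Lists are given as counts and medians with 1 probe set a gene. Members and lists were chosen with earlier results of these data known. Named with all values were the catalytic subunits, Psme1, Psme2, the 4 smallest p in each direction and every member without overlap. Of the lists of proteasome partners, up to 3 genes of smallest p were named, some by their change alone; leaders of the cell cycle and interferon gamma lists are not named. The array values of Psmb3, Psmd5, Psmd14 and Psmf1 and the mention of Nfe2l1 and Pomp were chosen after their values were seen. Alternatives were array centring, trend and robust settings, array weights, a replicate block, 32 added to the linear value, a filter on dim probe sets, 2 other choices of probe set, and each array left out. The number of arrays limits the precision.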

Additional observations from a re-analysis of the deposited data

Results flagged for a closer look

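Each gene's 4 wild-type values, and the medians of the members, were screened for an array far from the rest, 43 groups in all, of which chance picks about 1 in 20. There were 2 such values. Psme1 read 11.12 on wild-type replicate 1, where the next highest wild-type array was at 11.01. Psma8 read 4.76 on wild-type replicate 4, where the next highest was at 4.20, in a range below the median probe set.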

How the results depend on the processing

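Under every alternative, 0 members passed an adjusted p of 0.05. The median log2 change stayed negative, from -0.05 to -0.03 with other settings and from -0.11 (without hypomorph replicate 1) to -0.01 (without hypomorph replicate 3) with arrays left out. The count of positive members ran from 5 (without hypomorph replicate 1) to 20 (without hypomorph replicate 3) over left-out arrays. At an unadjusted p under 0.05, 4 members were lower with 32 added to the linear value, and 0 to 3 with an array left out; 0 were higher when a gene's probe sets were averaged, and 0 to 1 with an array left out. With the replicate block the count of positive members was 12, with 1 higher and 2 lower at that p. No label pairs the replicate numbers, so the numbers were not treated as pairs. The correlations of same-numbered arrays' deviations were 0.102, 0.0977 and 0.339. With so few arrays, centred within each group, these correlations cannot decide whether the numbers are pairs. Of the hypomorph arrays, replicate 3 correlated best with its own number, replicate 1 with wild-type replicate 2 (0.207) and replicate 2 with wild-type replicate 1 (0.126). Some small changes turned sign. With array weights Psmb6 and Psme1 were at 0.00, on the positive side. Over left-out arrays Psma7 ran from -0.02 to 0.09, Psmb6 from -0.11 to 0.03, Psmb7 from -0.04 to 0.13, Psmc1 from -0.03 to 0.30 and Psme1 from -0.13 to 0.02. The cause was not tested. Only the members named by rule were followed gene by gene. Of these, Psmb5, Psmc2, Psmc4, Psmd6, Psmd7, Psmd10, Psme3 and Psmc3ip kept their sign in all alternatives. Psmb5, Psmc2, Psmc4 and Psmd6 were named for groups without overlap, so leaving out an array could not turn their sign. The others were named for a small p in their direction, which favours a stable sign.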
